A study of Mus musculus with 47 samples.

Results

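The mRNAs described here encode regulators of mRNA decay: the zinc finger proteins Zfp36, Zfp36l1 and Zfp36l2, the AU-rich element binding proteins Khsrp, Tia1 and Tial1, the deadenylation cofactors Btg1 and Btg2, and the Pumilio protein Pum2. Members were all 3′ UTR intervals whose RefSeq mRNA name belongs to 1 of these 9 genes. This gave 16 transcripts of the 28190 mRNA transcripts measured and 9 genes of 18850. The transcripts of a gene shared 1 interval, so each gene has 1 value per library and 9 different regions were followed.

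The data are 47 SLAM-seq libraries of wild-type P19, an embryonal carcinoma line of the mouse able to form neurons. Cells were undifferentiated (D0, day 0) or differentiated for 6 days (D6) in NDiff 227 medium with 500 nM retinoic acid. 4-thiouridine (4sU), a uridine analog that reads as T>C conversions after alkylation, was given at 20 µM to D0 and at 500 µM to D6, so dose and state cannot be told apart in absolute label. In the anabolic assay cells were taken after 3, 6 or 9 h of 4sU, and the 0 h libraries hold no 4sU. In the catabolic assay cells were labeled for 15 h and then followed for 0, 3, 6 or 9 h after removal of 4sU, here called the chase. A shorter labeling time stands in another place of the study's methods, and 15 h is used throughout. Each state, assay and time has 3 libraries, except D6 at 6 h of chase, which has 2. The sample labels give the hours as 0, 1, 3 and 9, and the hours of the study's methods are used here. The study calls its SLAM-seq replicates biological, while the labels do not say how the libraries of a group were separated, and p-values measure the spread between these libraries.

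AU-rich elements are stretches in 3′ UTRs, built on the pentamer AUUUA, that mark many short-lived mRNAs. Zfp36 family proteins bind them and recruit the CCR4-NOT deadenylase, which shortens the poly(A) tail, while Khsrp brings in decay enzymes and Tia1 and Tial1 are better known for repressing translation. Btg1 and Btg2 bind the deadenylase and the poly(A)-binding protein and are known for slowing proliferation as neural progenitors differentiate, and Pum2 binds the Pumilio element and also recruits deadenylases.

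The Zfp36 family mRNAs themselves carry the nonamer for which these proteins are known. Each of the 3 family 3′ UTRs held exactly 1 TTATTTATT, and none of the other 6 members held it. The sites are shown because they are what the family shares in sequence. They were read from GENCODE M21 transcripts on the mm10 (GRCm38) build, in the 5′ to 3′ sense of the mRNA, with the nonamer in capitals.

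Zfp36, chr7:28376950-28376979, minus strand: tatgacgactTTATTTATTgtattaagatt

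Zfp36l1, chr12:80108166-80108195, minus strand: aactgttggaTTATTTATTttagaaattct

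Zfp36l2, chr17:84184913-84184942, minus strand: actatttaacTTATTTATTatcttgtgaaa

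The nonamer was present in 5.46% of the 14125 different 3′ UTRs located, and in 4.39%, 8.46% and 8.40% of those within 25% of the length of Zfp36, Zfp36l1 and Zfp36l2. It starts 589, 1404 and 821 bases into these 3′ UTRs. Only the sense strand was searched, and every TTATTTATT also counts as a TATTTAT and an ATTTA. The shorter TATTTAT occurred 3 times in each family member, once in Tia1, Tial1, Btg2 and Pum2, and not in Khsrp or Btg1. ATTTA was found in all 9, from 1 copy in Khsrp to 11 in Btg1. Of all 3′ UTRs located, 58.1% held ATTTA and 22.3% TATTTAT, and of those near each member's length 64.6% to 97.9% and 19.6% to 58.4%. A match is a description of letters and was not tested as a binding site.

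The Pumilio element is shown for Pum2 and Tial1, with TGTANATA in capitals, and the other members are not described for it here. Pum2 carried 2 copies in its own 3′ UTR and Tial1 carried 1, against 43.4% and 42.2% of 3′ UTRs of similar length with at least 1 copy.

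Pum2, chr12:8750154-8750183, plus strand: gtttatagagaTGTATATAgaattatagtt

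Pum2, chr12:8750407-8750436, plus strand: atgtacagaatTGTATATActtataattgt

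Tial1, chr7:128441738-128441767, minus strand: atgataaacatTGTAAATAttgaataacta

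The 3′ UTRs of Zfp36, Zfp36l1, Tia1 and Tial1 were located whole. Those of Zfp36l2, Khsrp, Btg1 and Pum2 were located but for a few bases at an end, and Btg2 for 2199 of 2504 bases.

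Libraries held 1489528 to 11677046 reads in 3′ UTRs, with a median of 7154292 at D0 and 3715703 at D6, so that D6 was the shallower state. The state labels were checked against markers. The 9 pluripotent cell markers summed to a median of 2388 CPM (reads scaled to the library's total in 3′ UTRs) at D0 and 656 at D6, with Dppa5a and Zfp42 at 0 in every library, and the 11 neuron markers to 995 and 7003. The 7 glia markers summed to medians of 36.5 and 62.1, and the 11 mesoderm, endoderm and fibroblast markers to 142 and 8.88. In bulk samples, fewer cells of a type and less RNA per cell cannot be told apart.

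**Figure D1:**
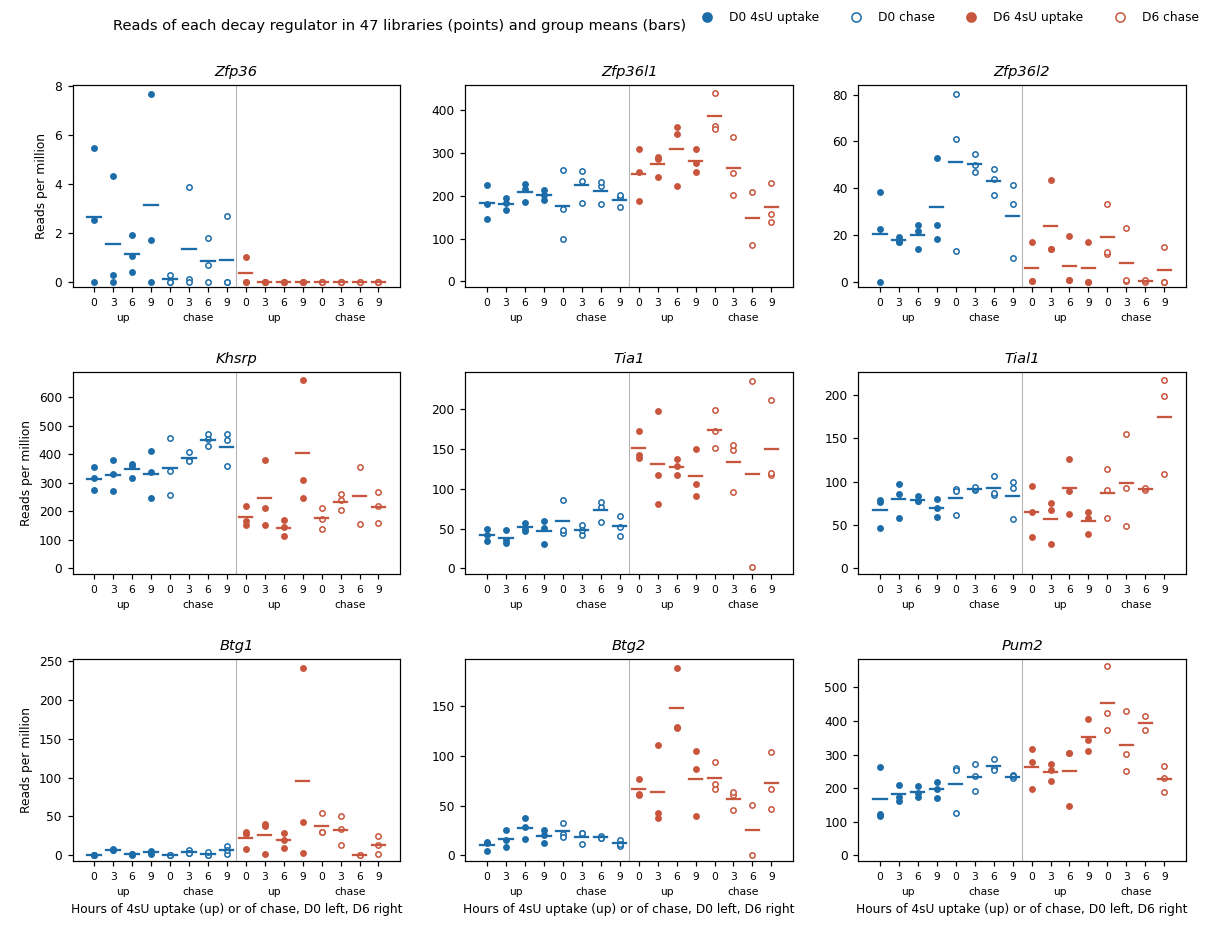
CPM of each regulator on a linear axis, by state, assay and hours, with 1 point per library and a bar at the group mean. Tia1, Btg1 and Btg2 lie mostly higher at D6, Khsrp mostly higher at D0, and Zfp36 is at 0 in 22 of the 23 D6 libraries.

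Differences between the states were asked first in libraries without 4sU, which carry no effect of the label. Tia1, Btg1 and Btg2 were higher at D6 than at D0, and no member was called lower by edgeR. The count was 3 of 8 members tested, against 13.1% of all 16091 transcripts tested called in either direction and 7.74% called higher (edgeR quasi-likelihood test, adjusted p under 0.05). Over the 8 members the median log2 difference was 0.56, and over all transcripts it was -0.04. In simulated data this comparison recovered 1.04% of log2 changes of 1 and 42.7% of log2 changes of 3, so a missed call does not show equal levels.

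Tia1, a translational repressor that also forms stress granules, had 48.9, 34.2 and 42.5 CPM at D0 and 143, 173 and 139 at D6. The D6 libraries all lay above the D0 libraries. With 3 libraries a side such separation can arise by chance, and its share over all transcripts was not counted, here or for the pairs of groups below. The log2 difference was 1.86 (SE 0.35, adjusted p = 0.0059 by edgeR).

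Btg2, a p53-induced antiproliferative gene known from neurogenic progenitors, had 12.3, 3.82 and 13.5 CPM at D0 and 61.1, 60.8 and 76.7 at D6. Again no library of one state overlapped the other. The log2 difference was 2.78 (SE 0.69, adjusted p = 0.023 by edgeR), and it missed the threshold when any 1 of 4 of the 6 libraries was left out, with an adjusted p of up to 0.089.

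Btg1, the close relative of Btg2, had no read in any of the 3 D0 libraries without 4sU and 123, 27 and 212 reads in those of D6. Against a floor of 3 counts over the group, Btg1 was at least 155-fold higher at D6 (adjusted p = 0.018 by edgeR). Without the first or the third of these D6 libraries the adjusted p was 0.075 and 0.081. Btg1 was not absent from D0 cells, since 17 of the 24 D0 libraries had reads, among them 47, 51 and 66 at 3 h of 4sU. Its highest value at D0 was 11.8 CPM, and its median was 1.85 at D0 and 27 at D6.

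Khsrp had 355, 275 and 315 CPM at D0 and 168, 153 and 220 at D6. The libraries did not overlap, with D6 lower. The log2 difference was -0.81 (SE 0.27), but the adjusted p of 0.074 by edgeR missed the threshold. By DESeq2, which called 19.9% of transcripts, Khsrp passed it at a log2 difference of -0.79 (adjusted p = 0.031).

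The Zfp36 family did not pass the test in libraries without 4sU. Zfp36l1 had 226, 180.2 and 145 CPM at D0 and 188, 308 and 256 at D6, which overlapped (log2 difference 0.45, adjusted p = 0.45 by edgeR). Zfp36l2 varied widely among libraries, with 38.2, 0 and 22.5 at D0 and 16.9, 0.28 and 0.14 at D6. Its 95% interval of -5.79 to 2.25 on the log2 scale spans both directions. Zfp36 had 18, 0 and 37 reads at D0 and 0, 0 and 7 at D6 and was too low to be tested.

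Pum2 had 262, 117 and 122 CPM at D0 and 317, 197 and 278 at D6, which overlapped (log2 difference 0.67, adjusted p = 0.28 by edgeR). Tial1, the paralog of Tia1, had 76.2, 78.9 and 46.9 at D0 and 36.4, 94.7 and 64.8 at D6. Unlike for Tia1, the Tial1 libraries of the states interleaved, with a log2 difference of -0.06 and a 95% interval of -1.05 to 0.94. Whether the state difference of Tia1 exceeds that of Tial1 was not tested.

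The states were compared again in libraries labeled with 4sU for 15 h, at 0 h of chase. Here 4 members were higher at D6 and 1 was lower, of 8 tested, against 14.9% of 15655 transcripts called in either direction, 7.33% called higher and 7.55% called lower. The members' median log2 difference was 1.03, beside -0.01 over all transcripts.

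Tia1 was again higher, with 45, 85.7 and 47.9 CPM at D0 and 172, 151 and 198 at D6 (log2 difference 1.40, SE 0.40, adjusted p = 0.036 by edgeR). Btg1 again had no D0 read, and its 298, 98 and 95 reads at D6 lay 168-fold above the same floor (adjusted p = 0.0036 by edgeR). The 95% interval of its log2 difference was 6.96 to 13.5. Tia1 was therefore called in both pairs of groups, and so was Btg1, but in a single fit of all 47 libraries Tia1 missed the threshold after 15 h (1.44, adjusted p = 0.13 by edgeR).

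Zfp36l1 had 259, 98.2 and 169 CPM at D0 and 362, 440.2 and 357 at D6 (log2 difference 1.06, SE 0.32, adjusted p = 0.048 by edgeR). Pum2 had 261, 125 and 253 at D0 and 424, 373 and 563 at D6 (log2 difference 1.01, SE 0.30, adjusted p = 0.042 by edgeR). For both, every D6 library lay above every D0 library, which was not so without 4sU.

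Khsrp was lower at D6 in this pair, with 340.0, 256 and 459 CPM at D0 and 211, 139.7 and 174 at D6 (log2 difference -1.09, SE 0.28, adjusted p = 0.023 by edgeR). Btg2 had 21.0, 32.8 and 18 at D0 and 66.1, 72 and 94.0 at D6. These Btg2 libraries did not overlap, yet the adjusted p of 0.086 by edgeR missed the threshold (log2 difference 1.55, SE 0.55). Btg2 passed it by DESeq2, which called 21.1% of transcripts (adjusted p = 0.037), and by edgeR without the D0 library numbered 26 (adjusted p = 0.048).

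Calls in this pair rest on 3 libraries a side. Without the D0 library numbered 26, Zfp36l1 missed the threshold (log2 difference 0.82, adjusted p = 0.058 by edgeR). Without the D6 library numbered 7, 8 or 9, or without the D0 library numbered 27, Btg1 was the single member with an adjusted p under 0.05, and without the D0 library numbered 25 there were 3 such members.

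**Figure D2:**
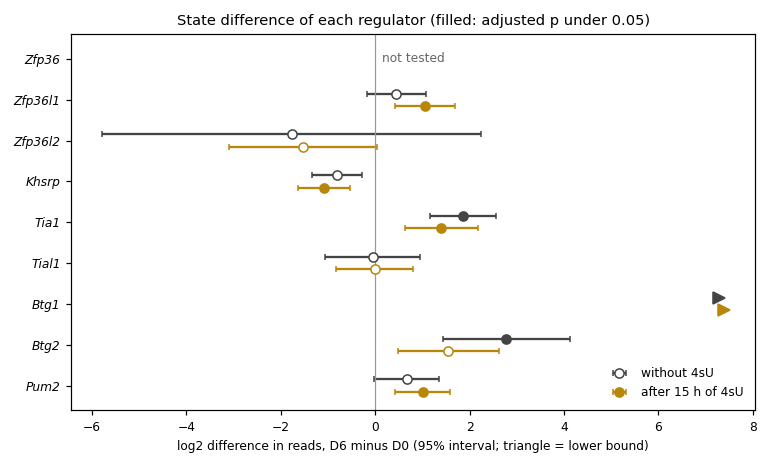
Log2 difference in reads, D6 minus D0, with 95% intervals, in libraries without 4sU and after 15 h of 4sU. Filled points passed the adjusted threshold, and Zfp36 was not tested. Triangles, marked as a lower bound on the axis, give Btg1 over the 3-count floor without the spread between libraries.

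The same contrast was also taken over the mean of the 8 groups of each state in 1 fit of all 47 libraries, an alternative chosen after seeing the data. It mixes libraries with and without 4sU and at every hour, so it does not separate the state from the 4sU dose. Of 9 members, 8 were called, 5 higher and 3 lower, against 45.1% of 20699 transcripts called in either direction, 17.4% called higher and 27.7% called lower, and the median transcript fell by 0.34 on the log2 scale.

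In this fit the Zfp36 family split. Zfp36 (-5.04, SE 1.22, adjusted p = 6e-04 by edgeR) and Zfp36l2 (-2.35, SE 0.61, adjusted p = 0.0011) were lower at D6, and Zfp36l1 was higher (0.43, SE 0.12, adjusted p = 0.0019). Zfp36 had reads in 15 of 24 D0 libraries, at most 54, and in 1 of 23 D6 libraries, with 7. It passed the filter of this fit only through D0, the state where it is higher, so its value there is a description and not support for a difference. Zfp36l2 had a median of 28.8 CPM at D0, with 1 library at 0, and of 0.60 at D6, with 5 libraries at 0. The D6 libraries are the shallower ones, and the part of depth in these zeros was not tested.

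Of the other members in that fit, Tia1 (1.49), Btg1 (4.30), Btg2 (2.0) and Pum2 (0.63) were higher and Khsrp (-0.64) was lower, all on the log2 scale. Tial1 was at 0.16 with an adjusted p of 0.58 by edgeR. The 2 D6 libraries at 6 h of chase are among the shallowest and differ from each other, with Tia1 at 2 and 462 reads, Btg2 at 0 and 99 and Btg1 at 1 in each. Leaving these 2 out kept the counts of 5 higher and 3 lower, with 44.2% of transcripts called (20.1% higher, 24.1% lower) and a median of -0.17.

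The order of the 16 group means placed all 8 D6 groups of Tia1 above its 8 D0 groups, and 7 of the 8 highest groups were of D6 for Btg1, Btg2 and Pum2. For Zfp36, Zfp36l2 and Khsrp, 7 of the 8 highest groups were of D0. Neighbours in this order seldom separated: of 15 neighbouring pairs, 2 did not overlap for Btg2, 1 for Tia1, 1 for Btg1 and none for the other 6 members. Of 18919 transcripts at least as abundant as the lowest member, 23.9% had 1 or more such pairs and 3.41% had 2 or more. In 18.4% of them at least 7 of the 8 highest groups were of D6, in 9.75% all 8 were, and in 24.7% at least 7 were of D0. Btg2 reached its highest mean at D6 after 6 h of 4sU, at 148 ± 34.5 CPM (SD, n = 3), and Btg1 at D6 after 9 h, at 95.6 ± 128 (SD, n = 3), where a single library of 241 set the mean.

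The genes whose group means ran most like those of a member were sought among 9147 genes, by Pearson's r of log2(CPM + 1) over the 16 group means, which share libraries and the state contrast. Tia1 ran closest to Pou3f2 (r = 0.96) and Nhlh1 (r = 0.96), neuronal transcription factor genes. Btg2 ran closest to Flrt3 (r = 0.96) and Atcay (r = 0.94), Btg1 to Lrrtm1 (r = 0.95) and C9orf72 (r = 0.93), and Pum2 to Klhl9 (r = 0.96) and Smim10l1 (r = 0.91). Zfp36l2 ran closest to Wdr74 (r = 0.97) and Supv3l1 (r = 0.94), Khsrp to Epb41l3 (r = 0.93) and Chka (r = 0.89), and Zfp36l1 to Med31 (r = 0.89) and Ufd1 (r = 0.88). Zfp36 ran closest to Shroom3 (r = 0.89) and Ptk2b (r = 0.87), and the values were lower for Tial1, with Rapgef6 (r = 0.83) and Map2k7 (r = 0.81).

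Whether 4sU itself changed these mRNAs was asked within each state, since 4sU can be a stress and Btg2 and Zfp36 are stress-responsive genes. No member tested was called after 9 h (0 of 8 at D0, 0 of 7 at D6) or 15 h of 4sU (0 of 7 at D0, 0 of 8 at D6) against none. Zfp36 had too few reads to be tested in 3 of these 4 comparisons, Btg1 in both at D0 and Zfp36l2 at D6 after 9 h. In 3 of these 4 comparisons edgeR called no transcript at all (0 of 16570 and 0 of 15494 at D0 and 0 of 14994 at D6 after 9 h), and after 15 h at D6 it called 0.0512%. At an unadjusted p under 0.05 there were 418, 319, 516 and 910 transcripts in these comparisons, and DESeq2 called 10, 3, 3 and 248. Among members, the smallest unadjusted values were those of Pum2 after 15 h at D6 (log2 difference 0.72, adjusted p = 0.47 by edgeR) and Khsrp after 9 h at D6 (1.16, adjusted p = 1.0 by edgeR). By DESeq2, which called 1.59% of transcripts after 15 h at D6, Pum2 passed the threshold there, with an adjusted p of 0.028.

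No state difference in the response to 4sU was called by edgeR, for 9 members tested at 9 h and 8 at 15 h or for any other transcript tested. Zfp36 was not tested at 15 h, and Btg1, with no D0 read in either group, had no usable estimate there. Of 17860 transcripts tested at 9 h and 17569 at 15 h, 0 were called, with 925 and 846 at an unadjusted p under 0.05, and DESeq2 called 114 and 75. The states received different doses, so this contrast compares 20 µM at D0 with 500 µM at D6.

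Reads at 9 h of chase were compared with 0 h. None of the 7 members tested at D0 was called, Zfp36 and Btg1 being too low to test (0 of 16048 transcripts by edgeR, 702 at an unadjusted p under 0.05, 33 by DESeq2). At D6 edgeR called none of the 8 members tested and 0.629% of 15112 transcripts, while DESeq2 called 3 members and 8.89% of transcripts, and edgeR without a filter on low counts called 3 members and 3.06% of 19404.

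At D6, Zfp36l1 went from 362, 440.2 and 357 CPM to 230.3, 156 and 138 (log2 difference -1.02, SE 0.25, adjusted p = 0.070 by edgeR). Pum2 went from 424, 373 and 563 to 264, 230.0 and 188 (-0.87, SE 0.23, adjusted p = 0.087 by edgeR). In both, the libraries of the 2 times did not overlap.

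Tial1 lay the other way, from 90.1, 57.9 and 114 CPM to 109, 199 and 217, where the lowest value at 9 h fell within the range at 0 h (1.13, SE 0.36, adjusted p = 0.17 by edgeR). Zfp36l1, Pum2 and Tial1 were the 3 members called by DESeq2, with adjusted p of 2.5e-04 for Zfp36l1, 7e-04 for Pum2 and 0.015 for Tial1, and the same 3 were called without the filter.

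Label in the RNA was followed as T>C conversions over covered T positions. After 15 h, all 3′ UTRs together carried 1.42% ± 0.064 at D0 and 4.63% ± 0.34 at D6 (SD, n = 3 each), and 0.17% in both states without 4sU. Members at 0 h of chase spanned 0.64% (Zfp36l2) to 1.59% (Zfp36l1) at D0, over those with reads in all 3 libraries, and 2.58% (Btg1) to 7.36% (Zfp36l2) at D6. Decay was tested as the slope of a transcript's conversions over hours of chase against that of all 3′ UTRs together in the same library, so that loss shared by all 3′ UTRs is not counted. Background conversions remain in both rates and were subtracted only in the limma alternative.

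Pum2 lost label faster than all 3′ UTRs together at D0. It was 1 of 7 members tested there, against 7.87% of 14090 transcripts called in either direction and 4.72% called faster. The relative slope was -0.27 log2 per h (SE 0.071, adjusted p = 0.014 by edgeR), and the median over all transcripts was -0.09.

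The Pum2 conversion rate at D0 was 1.02%, 1.02% and 1.68% at 0 h, 0.86%, 1.43% and 1.69% at 3 h, 0.46%, 0.61% and 0.62% at 6 h and 0.088%, 0.0091% and 0.097% at 9 h of chase. The first 2 times overlapped, the 6 h libraries lay below all earlier ones, and the 9 h libraries lay below those of 6 h. Between 14935 and 58448 covered T positions stood behind each of these rates.

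Mean Pum2 label was 45.7% of its 0 h value at 6 h and 5.22% at 9 h, where all 3′ UTRs together kept 73.1% and 29.2% and the median transcript 68.3% and 16.3%. Pum2 thus stood at percentile 28.4 and 22.5 of the 13606 transcripts compared. The rate at 9 h, 0.065%, was below the 0.099% of Pum2 in D0 libraries without 4sU, so no label above background was left.

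In 3 settings this call was lost: without the third library at 9 h the adjusted p was 0.055, with background-subtracted rates in limma it was 0.054, and with 0 and 9 h alone it was 0.061. The slope stayed between -0.26 and -0.28 in these 3.

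**Figure D3:**
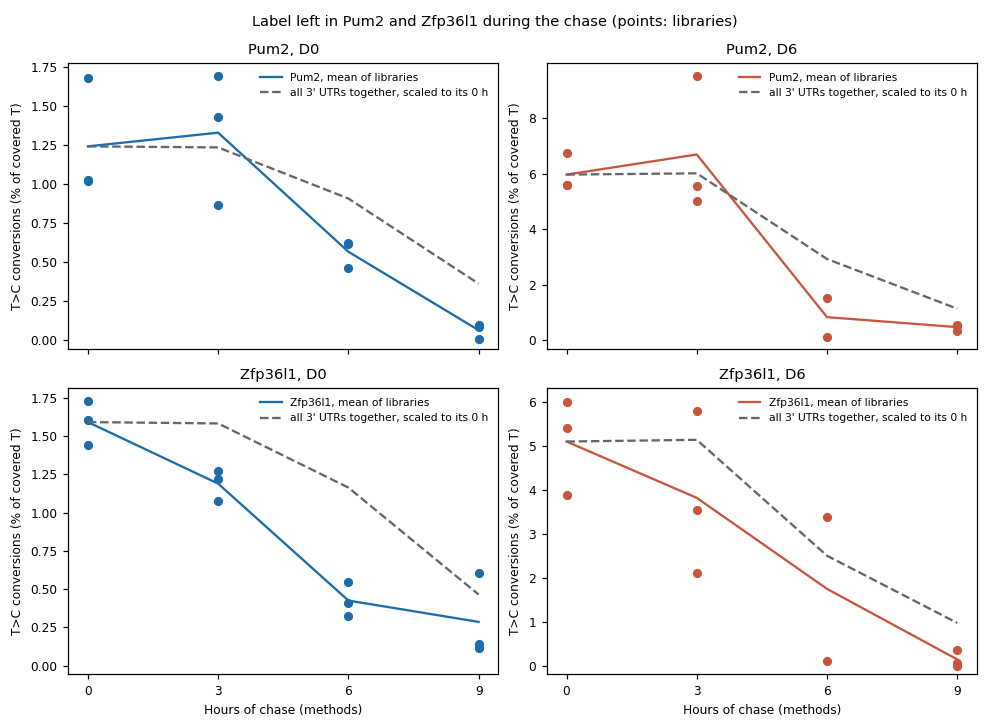
T>C conversions in percent of covered T positions over the hours of chase for Pum2 and Zfp36l1 at D0 and D6, with 1 point per library, a line through the means and a dashed line for all 3′ UTRs together scaled to the gene's 0 h mean. Pum2 at D0 ends at 5.22% of its start and the dashed line at 29.2%.

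Zfp36l1 had the most covered T positions of the family, with a mean of 32590 per library against 2295 for Zfp36l2 and 163 for Zfp36. Its rate at D0 was 1.60%, 1.44% and 1.73% at 0 h, 1.22%, 1.07% and 1.27% at 3 h, 0.32%, 0.54% and 0.41% at 6 h and 0.11%, 0.61% and 0.14% at 9 h. Libraries of 0, 3 and 6 h did not overlap, and the second library of 9 h lay above all those of 6 h.

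At 6 h Zfp36l1 kept 26.7% of its label, at percentile 13.5 of all transcripts, but at 9 h it kept 18%, at percentile 53.2. Its relative slope of -0.10 log2 per h (SE 0.054, adjusted p = 0.29 by edgeR) missed the threshold. Without the second 9 h library the slope was -0.23 with an adjusted p of 0.0015.

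The other members tested at D0 had slopes of -0.10 for Khsrp, -0.08 for Zfp36l2, 0.02 for Btg2, 0.05 for Tia1 and 0.10 for Tial1, on the log2 scale per h. None had an adjusted p below 0.35 by edgeR. Tia1 and Tial1 carried more label at 6 h than at 0 h, 157% and 174%, with a 0 h rate of 0.81% ± 0.29 and 0.71% ± 1.10 (SD, n = 3). Zfp36 and Btg1 had too few covered T positions at D0 to be tested.

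At D6 no member was called as different from all 3′ UTRs together (0 of 7 tested by edgeR). Of 12906 transcripts 0.558% were called, and 1533 had an unadjusted p under 0.05. In simulated data this comparison recovered 5% of slopes of 0.3 and 23% of slopes of 0.6, so a missed call does not show equal decay. Zfp36l1 had the steepest slope, -0.27 log2 per h (SE 0.13, adjusted p = 0.40 by edgeR), followed by Pum2 at -0.18 (SE 0.077, adjusted p = 0.33). Without adjustment, the 95% intervals of Zfp36l1 (-0.52 to -0.02) and Pum2 (-0.33 to -0.03) lay below 0. At 9 h of chase Zfp36l1 kept 2.79% of its label and Pum2 kept 7.96%, beside 19.1% for all 3′ UTRs together and 11.5% for the median transcript. The spread between libraries was wide at D6, as in the 6 h libraries of Zfp36l1 with 3.39% and 0.11%.

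No state difference in slope was called by edgeR for any of 8 members. Of 14166 transcripts 0.0212% were called, and 1076 had an unadjusted p under 0.05. Of these members, Zfp36l2 was below the coverage minimum at D6 alone and Btg1 at D0 alone. The largest estimate among members was that of Zfp36l2, at -0.84 log2 per h with a 95% interval of -1.70 to 0.03. Its D6 chase held 15 covered T positions at 6 h and 1466 at 9 h, in 1 library each, so this estimate cannot be read as a state difference. For Pum2 the state difference was 0.09 log2 per h with a 95% interval of -0.13 to 0.31, and for Zfp36l1 it was -0.17 with an interval of -0.43 to 0.09. The call of Pum2 at D0 alone therefore does not show a difference between the states.

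**Figure D4:**
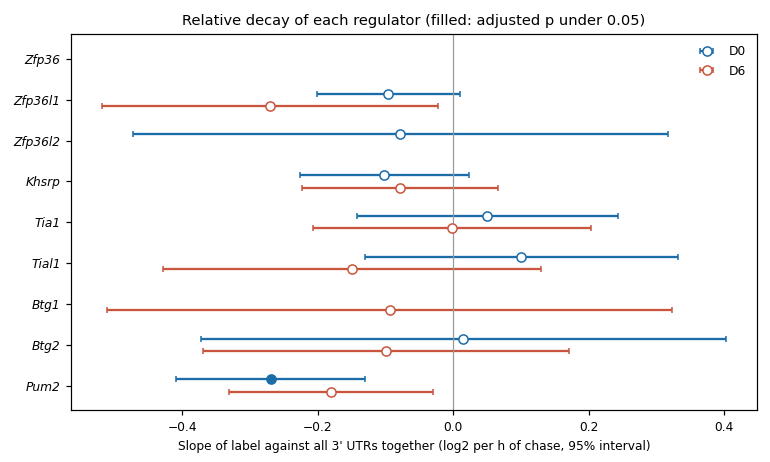
Slope of label over hours of chase against all 3′ UTRs together, in log2 per h with 95% intervals, for each member tested at D0 and D6. Negative values mean faster loss, and Pum2 at D0, at -0.27, is the single filled point.

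Half-lives were fitted as a description, with the study's criteria of an R squared over 0.6 and at most 5000 min. At D0 this kept Zfp36l1 with a decay half-life of 244 min (SE 31.8, R squared 0.87). At D6 it kept Zfp36l1 at 230.1 min (SE 66.8), Tial1 at 236 (SE 59.5), Tia1 at 206 (SE 63.4), Btg2 at 198 (SE 40.8) and Zfp36l2 at 57.1 (SE 24.1).

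The 2 values of Zfp36l1 differed by less than their SE. The Zfp36l2 value rests on 8 libraries, of which 6 are of the first 2 times, and a Zfp36 value at D0 of 105 min met the criteria but rests on 6 libraries and a single read at 0 h. This Zfp36 value was 39.8 min under the hours of the sample labels and 0.17 min without the D0 library numbered 29. Under the hours of the sample labels, the decay half-lives of the genes kept at D6 were 124, 123, 82.8, 82.2 and 19.1 min in the same order, and that of Zfp36l1 at D0 was 118 min. With 0 and 9 h alone, Zfp36l1 and Tial1 at D6 were at 105 and 143 min. The Zfp36l2 value was 33 min with 0 and 9 h alone, 10.4 min without the D6 library numbered 10 and 5.49 min after background subtraction. Tia1 was at 139 min without that library.

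Uptake was tested as label at 6 h of 4sU over that at 15 h, against all 3′ UTRs together. No member was called at D0 (0 of 7, against 2.52% of 13777 transcripts) or at D6 (0 of 7, against 0.06% of 13328). No state difference was called either (0 of 14170 transcripts by edgeR, 891 at an unadjusted p under 0.05). At D0 the log2 differences of Pum2 (0.84, adjusted p = 0.20 by edgeR) and Zfp36l1 (0.55, adjusted p = 0.29 by edgeR) lay toward earlier labeling without passing the threshold. Khsrp lay the other way (-0.56, adjusted p = 0.41 by edgeR), and the median over all transcripts was 0.19. Synthesis half-lives that met the criteria were 191 min for Pum2 (SE 69.99) and 326 for Zfp36l1 (SE 40.9) at D0, and 459 for Pum2 (SE 106) and 519 for Khsrp (SE 80.7) at D6. Under the hours of the sample labels these 4 values were 111, 192, 305 and 355 min, and with 0 and 9 h alone Pum2 at D0 was at 16.3 min.

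Other genes of the same pathways were followed as lists. Of the other ARE-binding proteins, 3 of 12 tested were higher at D6 without 4sU and none was lower, among them the neuronal mRNA stabilizers Elavl4 (6.28, adjusted p = 1.6e-06 by edgeR) and Elavl3 (4.57, adjusted p = 4.2e-06) on the log2 scale. No tested gene was called among 13 deadenylase subunits, 9 decapping and 5′ decay genes, 5 other BTG/TOB and Pumilio/Nanos genes and 10 p53 targets other than Btg2, with medians of 0.64, -0.35, 0.76 and 0.72. Of 19 mRNAs known for AU-rich elements, 2 were higher, Notch1 (3.05, adjusted p = 0.019) and Ccnd1 (1.17, adjusted p = 0.027). Beside these list counts, 7.74% of all 16091 transcripts tested were called higher and 13.1% in either direction, with a median of -0.04.

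After 15 h of 4sU, the deadenylase catalytic subunits Cnot6l (1.70, adjusted p = 0.0070 by edgeR) and Cnot7 (1.60, adjusted p = 0.0099) were higher at D6 and Cnot9 was lower (-1.32, adjusted p = 0.034), of 12 tested. Of 12 other ARE-binding proteins 3 were higher, among them Elavl3 (4.96, adjusted p = 2.6e-07) and Elavl4 (5.81, adjusted p = 1.0e-05), and 1 was lower, Hnrnpd, which encodes AUF1 (-1.07, adjusted p = 0.011). In the same 3 D6 libraries Hnrnpd was lower than in the D6 libraries without 4sU (-1.26, adjusted p = 0.048 by edgeR). Without any 1 of these 3, edgeR called no transcript in that comparison. Of 18 mRNAs known for AU-rich elements 3 were higher, among them Notch1 (5.65, adjusted p = 0.0028) and Ccnd1 (1.58, adjusted p = 0.0031), and 3 were lower, among them the immediate early gene Egr1 (-5.60, adjusted p = 0.023) and Dusp6 (-3.75, adjusted p = 0.015). Of the p53 targets, 2 of 11 tested were lower, Zmat3 (-2.30, adjusted p = 0.0052) and Aen (-7.11, adjusted p = 0.045). In D6 against D0 after 15 h, 7.33% of all 15655 transcripts were called higher, 7.55% lower and 14.9% in either direction.

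In relative decay at D0, Tob2, a relative of the Btg genes, lost label faster (-0.46 log2 per h, SE 0.14, adjusted p = 0.034 by edgeR). Of 12 other ARE-binding proteins 2 were faster, Hnrnpdl (-0.15) and Rc3h1 (-0.30). Of 17 mRNAs known for AU-rich elements 2 were faster, Pim3 (-0.29) and Ccnd1 (-0.28). Beside these counts, 4.72% of all 14090 transcripts were called faster and 7.87% in either direction. The deadenylase list had 0 of 12 called and a median of -0.07, beside -0.09 over all transcripts, and the decapping list had 1 of 8, Ddx6 (-0.16). At D6 none of these lists had a called gene, against 0.558% of 12906 transcripts.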

How the data were processed

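SLAM-seq libraries (QuantSeq 3′, no molecular identifiers) were counted by the authors with SLAMdunk 0.3.3 on mm10. The deposited values used are counts for each 3′ UTR interval, namely those of reads, of T positions covered and of T>C conversions. The deposited fraction of conversions and the deposited CPM were not used, and rates and CPM were recomputed from the counts. Multimapped reads numbered 0 in all files. Intervals carry RefSeq names (39419 intervals, 30432 of different coordinates), and 28059 of 28190 mRNA transcripts were given a symbol from a GRCm38.p6 gene table. Library totals are given in the report.

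Reads were tested with edgeR 4.0.16 (R 4.3.3; quasi-likelihood, TMM, filterByExpr, only the groups compared). Conversions were tested the same way with an offset of covered T positions times the library's overall rate, keeping transcripts whose mean coverage reached 1000 T positions per library. Adjusted p-values are Benjamini-Hochberg over all transcripts tested, with a threshold of 0.05, and the scripts were tested on simulated data. Half-lives are least-squares exponential fits. No 2 of the libraries within a group were identical (46 pairs). Alternatives were DESeq2 1.42.0, limma 3.58.1 on log2 of background-subtracted rates with a pseudocount of 5e-04, no filter, 1 fit over all libraries, distinct intervals, other offsets and coverage minimums, the labels' hours and leaving out each library. The genes named are the 9 members, up to 2 genes per list and direction with the smallest p among those called, and the 2 genes most like each member. Members, lists and rules were chosen with earlier results of these data known. Some items are not reported here.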

Additional observations from a re-analysis of the deposited data

Results flagged for a closer look

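Groups outside the comparisons of reads were screened for member levels, in CPM, that lay in every library above every library without 4sU of the same state. This held for 13 of 72 combinations of member and group, 11 of 36 at D0 and 2 of 36 at D6. Over all 22842 transcripts with a read in any library, many of them lower than the members, the shares were 7.24% at D0 and 3.92% at D6, and no test was run. At D0 the groups share the same 3 libraries without 4sU.

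Among D0 groups at 3 h of chase these were Zfp36l2 (50.4), Khsrp (389), Tial1 (91.8) and Btg1 (4.49), and at 6 h of chase Khsrp (452), Tia1 (73.1), Tial1 (92.5) and Btg2 (17.9). Among D0 groups in 4sU they were Btg1 at 3 h (7.01) and 6 h (1.45) and Btg2 at 6 h (27.3), where the Btg1 libraries without 4sU were all at 0 and the highest of Btg2 was 13.5. At D6 they were Btg2 after 6 h of 4sU (148, lowest library 128, against at most 76.7 without 4sU) and Pum2 at 6 h of chase (393, n = 2, against at most 317).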

How the results depend on the processing

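Depth and 3 libraries a group limit these results: the low members Zfp36, Zfp36l2 and Btg1 had libraries at 0 beside libraries with reads within groups, and a p that misses the threshold does not show equal levels. Causes of the changes below were not tested. No paired analysis was possible because library numbers are not shared between groups. Over the planned and added settings, 59 of 69 counts of members called stayed within 1.5 times, and 442 of 509 member log2 differences kept direction and side of the threshold. Of these differences, 41 changed sign, and 1 of them was past the threshold in the other direction, Zfp36l1 in uptake at D0 with an offset of covered T positions alone (-0.81, adjusted p = 0.025 by edgeR).

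For D6 against D0 without 4sU, transcripts called numbered 2115, and 3209 by DESeq2 and 1351 over distinct intervals. The means of the 8 groups of each state, chosen after seeing the data, gave 9338 transcripts and 8 members, and 9145 and 8 without D6 at 6 h of chase. After 15 h of 4sU distinct intervals gave 1504. Leaving out 1 library gave 1253 to 2307 transcripts and 1 to 3 members without 4sU, and 1416 to 2257 and 1 to 5 after 15 h.

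For 4sU against none, DESeq2 called 10 (D0) and 3 (D6) transcripts at 9 h and 3 and 248 at 15 h, with 1 member, Pum2, in the last. A single fit over all 47 libraries called 1 and 4 at 9 h and 10 and 4 at 15 h. At 15 h at D6, no filter on low counts gave 82, distinct intervals 1 and leaving out 1 library 0 to 3. For state differences in this response DESeq2 called 114 at 9 h and 75 at 15 h, where no filter gave 38, a single fit 1 and distinct intervals 1, and leaving out 1 library gave 0 to 5 and 0 to 9. For 9 h of chase, DESeq2 called 33 at D0 and 1343 at D6 with 3 members, no filter 6 and 593 with 3 members, a single fit 12 at D6, and leaving out 1 library 0 to 3 and 1 to 203 (203 without the D6 library numbered 17 at 9 h, at most 6 without any other).

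For relative decay, an offset of covered T positions alone, which compares with no change over time, called 4034 transcripts and 3 members at D0 and 2851 and 3 at D6. The labels' hours gave 2657 and 212, 0 and 9 h alone 693 (0 members) and 122, background-subtracted rates in limma 0 members at D0 and 33 transcripts at D6, and a coverage minimum of 10000 gave 112 at D6. Leaving out 1 library gave 629 to 1159 transcripts and 0 to 2 members at D0 and 52 to 202 transcripts at D6, the last without the library numbered 14 at 6 h. The state difference was 0 transcripts in limma, 23 with the labels' hours, 12 with 0 and 9 h alone and 0 to 8 without 1 library. For uptake at D0 and D6, that offset gave 2953 (2 members) and 338, a coverage minimum of 10000 gave 560 and 19, limma 194 and 0, and 9 h of 4sU 0 and 0. Without 1 library it was 111 to 313 and 1 to 114, and 0 to 3 for the state difference.

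Among differences in reads and decay that changed sign, none was past the threshold in either setting. They were Tial1 reads without 4sU (0.0020 in a single fit, 0.16 and 0.13 over group means, -0.45 to 0.25 without 1 library) and after 15 h of 4sU (0.013 by DESeq2, 0.024 without filter, 0.024 in a single fit, 0.091 over distinct intervals, -0.20 to 0.27 without 1 library). In reads over the chase at D6 they were Tia1 (-0.44 to 0.10) and Btg2 (-0.28 to 0.25) without 1 library. In decay at D0 they were Zfp36l2 (0.0011 in limma), Tia1 (-0.13 with the T position offset, -0.0060 with the labels' hours), Tial1 (-0.081 with that offset) and Btg2 (-0.16 with it, -0.0017 with 0 and 9 h, -0.10 to 0.063 without 1 library). In decay at D6 they were Tia1 (0.036 in limma, 0.035 with the labels' hours, -0.033 to 0.021 without 1 library) and Btg1 (-0.35 to 0.0051 without 1 library).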
